A study of Mus musculus with 6 samples.

Results

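The DNA replication machinery was read here as 44 genes chosen by function, from origin licensing factors to the enzymes that supply deoxynucleotides, with earlier results of these data known. All 44 were found by symbol among the 55487 genes of the count table, and all 44 passed the filter on low counts that left 18259 genes for testing. RNA was sequenced from whole dorsal mouse skin in 6 libraries, 3 labelled control and 3 labelled DPCP, 2 days into treatment according to the series' design text. Libraries held 28346992 to 38846787 counts. DPCP (diphenylcyclopropenone) is a contact sensitizer that is painted on skin. What the control skin received, and the strain, sex and age of the mice, are not given in the sources used here. Nor do the labels say that each library came from its own animal, so p-values measure only the spread between these samples, which may be technical.

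Replication begins when the origin recognition complex (ORC), CDC6 and CDT1 load the MCM2-7 ring onto DNA, and geminin (Gmnn) blocks a repeat of that loading. CDC45 and the GINS complex then turn the ring into an active helicase, after which primase, the replicative polymerases, the PCNA clamp and its loader, and the factors that join Okazaki fragments copy both strands. In skin the cells known for this programme are the dividing basal keratinocytes and the matrix cells of growing hair follicles, and proliferating leukocytes use the same genes. Many of these genes are textbook targets of E2F transcription factors, which bind GC-rich words such as TTTCCCGC near the start site.

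Promoters of 5 of the genes whose start-site sequence holds such words, and of 2 whose sequence does not, are shown so that the words can be set beside the expression values that follow. Each stretch runs 5′ to 3′ on the gene's strand, from 200 bases before the annotated start to 30 bases after it, and was taken from RefSeq on build GRCm38.p6. Capitals mark the words TTTCCCGC, TTTGGCGC, TTTCGCGC and TTTGCCGC on either strand, and words that overlap were joined and counted as 1 site.
Mcm5, chr8:75109309-75109538, plus strand: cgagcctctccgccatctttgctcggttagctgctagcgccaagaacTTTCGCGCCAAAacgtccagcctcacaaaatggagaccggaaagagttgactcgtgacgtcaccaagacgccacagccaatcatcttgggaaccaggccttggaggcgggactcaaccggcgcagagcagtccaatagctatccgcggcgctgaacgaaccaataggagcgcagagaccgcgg
Mcm6, chr1:128359676-128359905, minus strand: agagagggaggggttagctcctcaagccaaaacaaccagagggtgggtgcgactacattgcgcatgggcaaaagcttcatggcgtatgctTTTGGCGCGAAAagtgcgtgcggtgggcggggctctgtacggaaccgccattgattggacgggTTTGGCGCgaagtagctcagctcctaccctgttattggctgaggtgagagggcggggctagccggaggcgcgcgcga
Mcm7, chr5:138171854-138172083, minus strand: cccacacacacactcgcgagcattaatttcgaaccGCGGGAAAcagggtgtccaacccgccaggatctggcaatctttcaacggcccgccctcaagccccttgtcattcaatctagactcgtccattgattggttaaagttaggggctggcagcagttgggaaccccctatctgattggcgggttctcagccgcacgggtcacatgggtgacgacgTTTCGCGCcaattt
Mcm3, chr1:20820283-20820512, minus strand: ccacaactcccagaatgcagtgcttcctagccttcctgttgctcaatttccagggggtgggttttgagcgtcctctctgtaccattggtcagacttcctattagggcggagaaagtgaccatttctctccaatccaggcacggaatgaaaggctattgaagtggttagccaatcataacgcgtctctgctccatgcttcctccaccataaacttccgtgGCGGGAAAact
Orc1, chr4:108579254-108579483, plus strand: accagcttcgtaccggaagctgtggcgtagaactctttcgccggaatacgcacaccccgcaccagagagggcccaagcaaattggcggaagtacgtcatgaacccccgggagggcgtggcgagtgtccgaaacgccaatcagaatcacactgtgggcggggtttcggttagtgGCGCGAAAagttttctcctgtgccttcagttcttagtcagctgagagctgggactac
Mcm10, chr2:5012762-5012991, minus strand: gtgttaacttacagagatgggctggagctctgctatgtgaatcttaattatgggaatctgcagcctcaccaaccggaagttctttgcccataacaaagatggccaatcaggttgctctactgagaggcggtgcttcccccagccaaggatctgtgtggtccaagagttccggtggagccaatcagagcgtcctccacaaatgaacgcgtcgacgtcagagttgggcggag
Rfc1, chr5:65335610-65335839, minus strand: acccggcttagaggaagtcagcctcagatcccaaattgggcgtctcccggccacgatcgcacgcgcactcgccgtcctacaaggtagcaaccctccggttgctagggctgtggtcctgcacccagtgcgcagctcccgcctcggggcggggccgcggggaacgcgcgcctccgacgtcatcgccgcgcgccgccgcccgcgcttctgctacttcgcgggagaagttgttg
In the Mcm5 promoter the 2 strands' words overlap in a single site that begins at -153, counted in bases from the start. The promoter of Mcm6 has 2 sites, at -110 and -47, and the stretch shown for Mcm7 also has 2, at -165 and 17 from the start. Mcm3 carries its marked word at 20, and a further one at 39 lies just past the bases shown. The Orc1 word begins at -27. For Mcm10 and Rfc1, which had the largest and the smallest fitted changes of all 44 genes, no such word was found in the window, which says only that these letters are not in it. The Mcm10 window ends with all but the last letter of TTTGGCGC, so a word that crosses its edge would have been missed.

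Whole windows of 300 bases (250 before the start and 50 after) were at hand for 36 of the 44 genes. The 8 others, Mcm4, Gmnn, Gins1, Gins2, Gins4, Prim2, Pole and Rfc2, are named only. For some genes, among them E2f1, Cdc6, Dut and Mcm7, the annotated start lies well inside the gene's span in the count table. Their windows then fall wholly within that span, so the bases before its first exon were not searched. An E2F-type word was present for 14 of the 36 genes (38.9%), namely Cdc6, Cdt1, Gins3, Lig1, Mcm3, Mcm5, Mcm6, Mcm7, Mcm8, Orc1, Pola1, Pold1, Rfc3 and Uhrf1. Of all genes with a window of this length 704 of 27025 (2.61%) had one, as did 519 of 12458 tested genes (4.17%) and 174 of 3076 genes called higher in DPCP (5.66%). Counted by window, since some genes have several, the share was 14 of 42 (33.3%) for the replication genes and 744 of 32851 (2.26%) over all promoters. The median GC content was 60.7% in the replication genes' windows, 59.7% over tested genes and 52.7% over all promoter windows. Among the other genes of the replication pathway listed below, 20 of 61 (32.8%) had a word. Within the 44, the genes with a word had a median log2 fold change of 1.32 (n = 14, from 0.60 to 2.23) and those with a window but no word one of 0.96 (n = 22, from 0.22 to 2.52). The ranges overlap, the difference was not tested, and a match is a description of sequence, not a bound site.

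**Figure D1:**
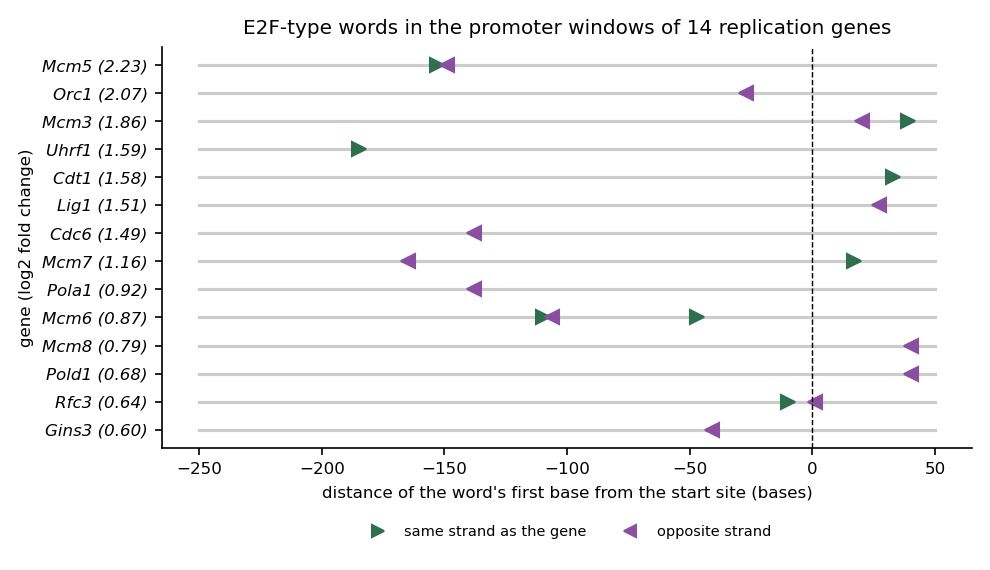
Position of each E2F-type word relative to the annotated start site (x axis, bases, 0 at the start) in the RefSeq windows of the 14 replication genes that hold one (y axis, 1 gene a line), with the word's strand shown by the marker and the gene's log2 fold change in brackets. The 20 matches are spread from -185 to 40, and Mcm3, Mcm6, Mcm7 and Rfc3 each have more than 1 site.

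In DPCP skin transcripts of nearly the whole replication machinery were more abundant. By edgeR's quasi-likelihood test with Benjamini-Hochberg adjustment over all tested genes (called at an adjusted p under 0.05), 43 of the 44 genes rose and 0 fell, while over all tested genes 22.8% rose and 23.3% fell (46.1% changed in either direction). The gene not called was Rpa1, and with DESeq2 the count of genes lower was also 0. All 44 fitted changes were positive, so none was lower at an unadjusted p under 0.05 either. For all 44 the lowest DPCP library lay above the highest control library in CPM (counts scaled to library size), against 28.6% of all tested genes. At least a doubling was seen for 25 of the 43 called genes, and 7.89% of all tested genes were called higher at that size. The median log2 fold change was 1.21 over the 44 genes, with quartiles of 0.76 and 1.57, and -0.01 over all tested genes. Changes ran from 0.22 for Rfc1 to 2.52 for Mcm10, with SEs between 0.07 and 0.24, so the largest and smallest changes differed by more than their errors. In whole tissue, fewer or more cells of a type and less or more RNA per cell cannot be told apart.

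**Figure D2:**
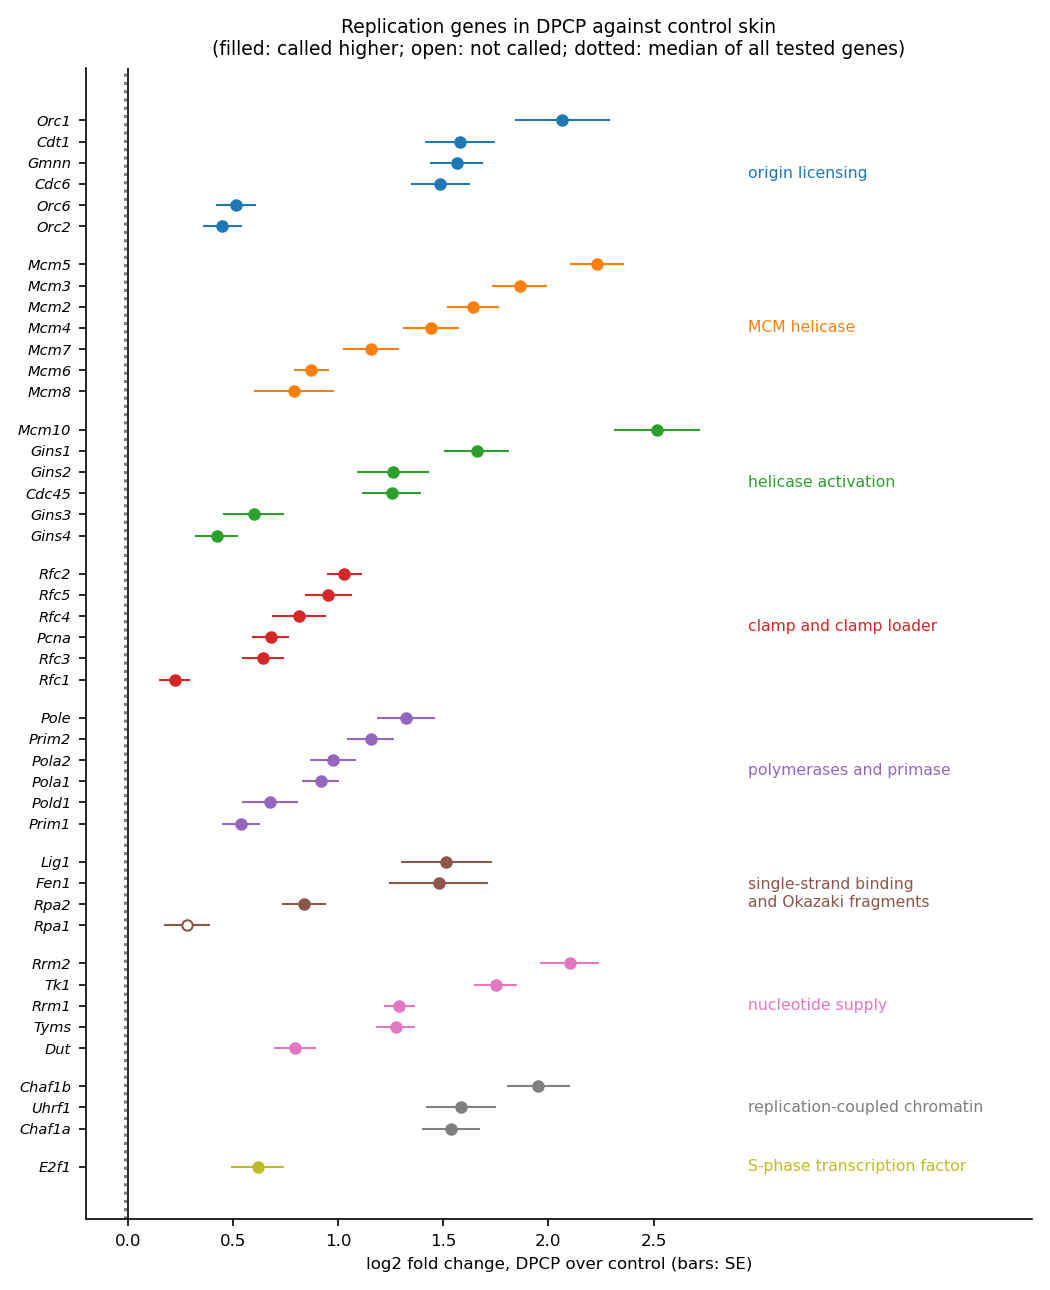
Fitted log2 fold change, DPCP against control (x axis), of each of the 44 replication genes (y axis), grouped by role, with bars of 1 SE. Filled points were called higher by edgeR, and the dotted line is the median of all tested genes. Every point lies above 0, from 0.22 for Rfc1 to 2.52 for Mcm10, and Rpa1 is the single gene whose adjusted p missed the threshold.

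Summed over the 44 genes, the level was 868, 909 and 875 CPM in the control libraries and 1810, 1878 and 2101 CPM in the DPCP libraries. The means were 884 ± 22.4 CPM (SD, n = 3) and 1930 ± 152 CPM (SD, n = 3), a ratio of 2.18, and the groups did not overlap. Per length, as TPM (reads per kilobase of exon, scaled to the same total in each library), the same genes summed to 649 ± 27.4 TPM in control skin and 1200 ± 173 TPM in DPCP skin (SD, n = 3), a ratio of 1.85. This TPM sum was added after the data had been seen. On that scale all 44 means were higher in DPCP, and 39 genes had groups that did not overlap. The exceptions were Gins4, Rfc1, Pold1, Rpa1 and E2f1, whose fitted changes all lay under the lower quartile of the 44. The matching shares of all tested genes were not computed in TPM, so these counts only describe the members.

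The 3 DPCP libraries were not equally high. Of the 44 genes, 31 had their highest value in DPCP replicate 3 and 31 had their lowest DPCP value in DPCP replicate 1, whereas DPCP replicate 2 was highest for 10 and lowest for 9. Over all genes DPCP replicate 1 also stood nearest to the control libraries on the first principal component, at 49.2 against 73.8 and 71.9, with control libraries between -65.3 and -64.5. Without DPCP replicate 1, 43 of the 44 genes were called higher, and the median log2 fold change was 1.24.

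**Figure D3:**
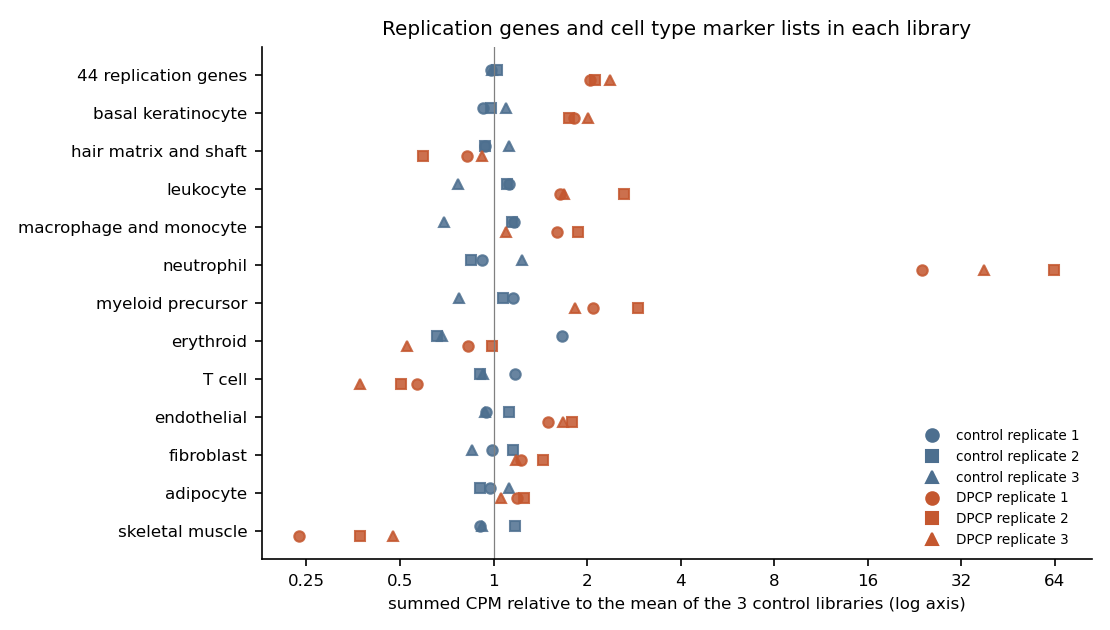
Summed CPM in each of the 6 libraries relative to the mean of the 3 control libraries (x axis, log scale, line at 1) for the 44 replication genes and 12 marker lists (y axis), with colour for the group and marker shape for the replicate. Among the DPCP libraries the replication sum is highest in replicate 3 (2101 CPM). So are the basal keratinocyte (29138 CPM), hair matrix and shaft (30.3 CPM) and skeletal muscle (4466 CPM) sums. The T cell sum is highest in DPCP replicate 1 (29.8 CPM), and all other lists, such as neutrophil (1204 CPM), in DPCP replicate 2.

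Origin licensing genes rose in 6 of 6 cases, and their sum went from 57.2 ± 0.798 to 112 ± 4.81 CPM (SD, n = 3). Orc1, the large ORC subunit with ATPase activity, had 1.601, 2.07 and 1.40 CPM in the control libraries and 5.48, 7.99 and 7.76 CPM in the DPCP libraries. Even the lowest DPCP value was more than the highest control value, with a log2 fold change of 2.07 ± 0.23 (± SE, as for all log2 fold changes here; edgeR adjusted p = 0.000202). Orc2, a core ORC subunit, moved far less, from 20.0, 19.4 and 21.1 CPM to 27.3, 29.3 and 25.8 CPM (0.45 ± 0.09, edgeR adjusted p = 0.00486). Orc6, the smallest ORC subunit, rose by a similar amount (0.51 ± 0.10, on the log2 scale). The loading factors and their inhibitor rose together, Cdc6 by 1.49 ± 0.14, Cdt1 by 1.58 ± 0.16 and Gmnn by 1.56 ± 0.13 on the log2 scale. Per length, Cdt1 stood at 0.431 ± 0.127 of Gmnn in control skin and 0.425 ± 0.0374 in DPCP skin (SD, n = 3; exact two-sided permutation p = 0.9).

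The other ORC subunits, which were not members, were read in the same fit. Orc3 (-0.04, edgeR adjusted p = 0.779), Orc4 (0.11, adjusted p = 0.303) and Orc5 (0.00, adjusted p = 0.981) were not called. In TPM, Orc1 was the least abundant of the 6 ORC subunits in both groups, at 1.41 ± 0.327 in control and 5.06 ± 0.868 in DPCP skin, and Orc6 the most abundant, at 20.3 ± 1.10 and 24.9 ± 1.51 (SD, n = 3). The ratio of the highest to the lowest ORC subunit thereby went from 14.3 in control to 4.92 in DPCP skin.

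All 7 MCM genes rose, and their sum went from 200 ± 12.5 CPM to 556 ± 68.7 CPM (SD, n = 3), a ratio of 2.77. Mcm5, a subunit of the MCM2-7 helicase ring, had the largest change of the group. Its level was 22.0, 26.4 and 24.3 CPM in control and 102.4, 105 and 134 CPM in DPCP libraries, a log2 fold change of 2.23 ± 0.13 (edgeR adjusted p = 1.21e-05). Mcm3, also of the ring, went from 21.8, 28.2 and 22.8 CPM to 78.1, 86.4 and 100.4 CPM (1.86 ± 0.13, edgeR adjusted p = 2.79e-05). DPCP replicate 3 was the highest library for both. Mcm7 read 38.8, 44.1 and 36.1 CPM in control and 78.4, 82.0 and 105 CPM in DPCP libraries (1.16 ± 0.13, edgeR adjusted p = 0.000236). Mcm6, whose promoter has 2 word sites, changed least within the ring, from 52.5, 50.3 and 45.9 CPM to 92.1, 92.0 and 88.1 CPM (0.87 ± 0.08, edgeR adjusted p = 0.000104). Unlike the others, its 3 DPCP libraries lay close together. The remaining ring subunits fell between these, Mcm2 at 1.64 ± 0.12 and Mcm4 at 1.44 ± 0.13. Mcm8, which forms a separate helicase with MCM9 and serves recombination repair, went from 6.71, 4.17 and 5.07 CPM to 8.20, 9.55 and 9.82 CPM (0.79 ± 0.19, edgeR adjusted p = 0.00994), the smallest change of the MCM group. Its partner Mcm9, not a member, fell by 0.34 on the log2 scale (edgeR adjusted p = 0.0257), a call that was lost in 6 of the 13 alternative analyses it entered.

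Because the ring contains each of MCM2 to MCM7 once, levels per length were set side by side. In control skin they ran from 9.92 ± 1.09 TPM for Mcm2 to 30.8 ± 2.56 TPM for Mcm6, and in DPCP skin from 26.9 ± 5.68 TPM for Mcm2 to 71.7 ± 15.9 TPM for Mcm5 (SD, n = 3). The order at the top thus changed, with Mcm5 at 0.574 ± 0.0736 of Mcm6 in control and 1.47 ± 0.267 in DPCP libraries. The ratio of the highest to the lowest subunit was 3.10 in control and 2.67 in DPCP skin.

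**Figure D4:**
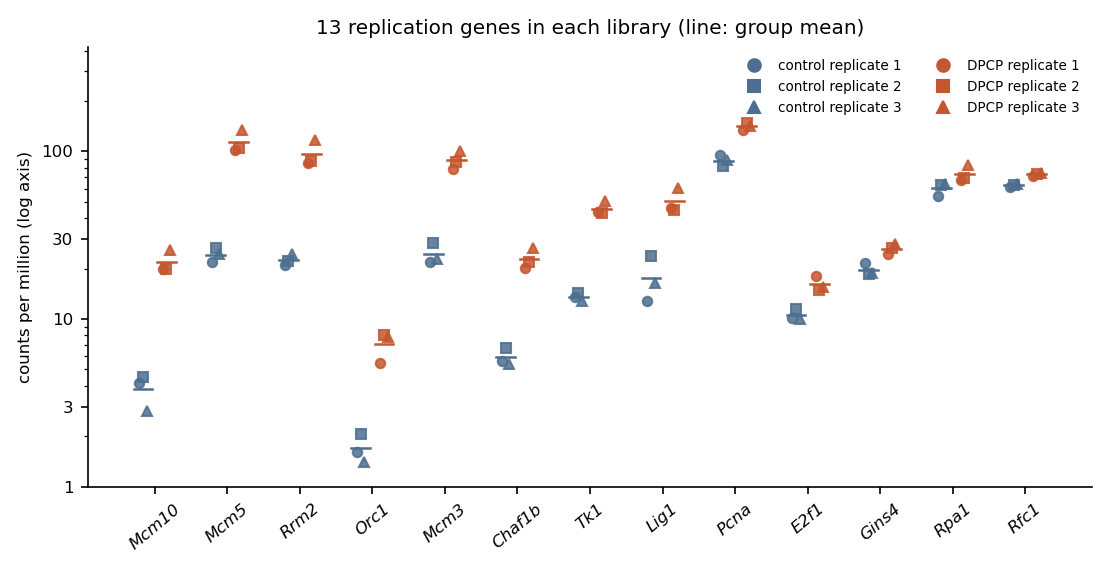
CPM (y axis, log scale) in each of the 6 libraries for 13 replication genes (x axis), with 3 control and 3 DPCP points a gene and a line at each group mean. Mcm5, Rrm2 and Mcm10 show wide gaps between the groups, and Rfc1 and Rpa1 show groups that lie close together.

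Helicase activation genes held both the largest change and one of the smallest. Mcm10, which helps to start unwinding at the assembled helicase, was at 4.15, 4.53 and 2.81 CPM in control and 19.8, 19.9 and 25.9 CPM in DPCP libraries. Its log2 fold change of 2.52 ± 0.20 (edgeR adjusted p = 4.59e-05) was the largest of the 44 genes. Gins4, 1 of the 4 GINS subunits, went only from 21.6, 18.5 and 18.8 CPM to 24.4, 26.6 and 27.9 CPM (0.42 ± 0.10, edgeR adjusted p = 0.0107). Its groups overlapped in TPM, at 42.2 ± 3.43 in control and 48.9 ± 5.71 in DPCP skin (SD, n = 3). The other GINS genes rose unequally on the log2 scale, Gins1 by 1.66 ± 0.16, Gins2 by 1.26 ± 0.17 and Gins3 by 0.60 ± 0.15, and Cdc45 rose by 1.25 ± 0.14. Gins4 was the most abundant GINS transcript in both groups, and the ratio of the highest to the lowest went from 10.6 to 7.61. In control skin that ratio rests on Gins2, whose level is uncertain because reads in bases shared with Gse1 were not counted. All 6 genes of this group were called higher, and the group's sum went from 44.2 ± 3.54 to 96.4 ± 4.96 CPM (SD, n = 3).

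The sliding clamp and its loader had the smallest rise among groups of more than 1 gene, from 209 ± 4.82 to 324 ± 9.52 CPM (SD, n = 3), a ratio of 1.55. Rfc2, a small subunit of the clamp loader RFC, had 25.5, 25.3 and 23.7 CPM in control and 51.0, 48.4 and 52.7 CPM in DPCP libraries (1.03 ± 0.08, edgeR adjusted p = 4.59e-05). Rfc1, the large RFC subunit, had 61.0, 63.0 and 64.1 CPM and 71.6, 73.0 and 74.8 CPM (0.22 ± 0.07, edgeR adjusted p = 0.0369). Although its groups did not overlap in CPM, the Rfc1 call was lost in 11 of 14 alternative analyses, among them those that left out any 1 library, and its TPM was 30.2 ± 1.10 in control and 30.5 ± 3.24 in DPCP skin. Pcna, which encodes the clamp itself, went from 94.6, 81.4 and 88.4 CPM to 134, 148 and 142 CPM (0.68 ± 0.09), and per length it was the most abundant of the 44 genes in both groups, at 106 ± 6.14 and 147 ± 10.4 TPM (SD, n = 3). Rfc3, Rfc4 and Rfc5 rose by 0.64 ± 0.10, 0.81 ± 0.13 and 0.95 ± 0.11 on the log2 scale. All 6 genes of the group were called higher.

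Polymerase and primase genes rose in 6 of 6 cases, from a sum of 90.2 ± 1.68 to 169 ± 7.01 CPM (SD, n = 3). Pole, the catalytic subunit of the leading-strand polymerase epsilon, changed most, from 9.57, 10.9 and 12.1 CPM to 25.03, 24.9 and 31.6 CPM (1.32 ± 0.14, edgeR adjusted p = 0.000166). Prim1, the catalytic primase subunit, changed least, from 21.0, 19.4 and 20.8 CPM to 31.5, 28.2 and 29.1 CPM (0.54 ± 0.09, edgeR adjusted p = 0.00175). Neither gene's groups overlapped. Prim2, the other primase subunit, rose by 1.15 ± 0.11, the polymerase alpha genes Pola1 and Pola2 by 0.92 ± 0.09 and 0.97 ± 0.11, and Pold1, the catalytic subunit of polymerase delta, by 0.68 ± 0.13 on the log2 scale. Per length, Pole was at 0.324 ± 0.0406 of Pold1 in control and 0.505 ± 0.0277 in DPCP libraries (SD, n = 3).

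Single-strand binding and Okazaki fragment genes included the gene that was not called. Rpa1, the large subunit of the single-strand binding complex RPA, had 54.3, 62.7 and 63.9 CPM in control and 67.6, 69.0 and 83.1 CPM in DPCP libraries. The lowest DPCP value lay just above the highest control value, and the log2 fold change was 0.28 ± 0.11 (edgeR adjusted p = 0.0645). Without DPCP replicate 1 it was 0.34 with an edgeR adjusted p of 0.0489, so a call was made without that library. Rpa2 rose by 0.84 ± 0.10 on the log2 scale, and Rpa3, not a member, by 0.42 ± 0.13 (edgeR adjusted p = 0.0255), a call lost in 5 of 14 alternative analyses. Lig1, the ligase that seals Okazaki fragments, went from 12.8, 23.6 and 16.4 CPM to 45.8, 44.6 and 60.7 CPM (1.51 ± 0.22, edgeR adjusted p = 0.000787), with control libraries that were more spread than for most members. Fen1, the flap endonuclease, had 1.02, 0.766 and 0.806 CPM and 2.14, 2.46 and 2.64 CPM (1.48 ± 0.24). Its level is uncertain, since Gm10143 is annotated over the same exons and holds 71.9% of its 100-base words, and reads that fit more than 1 gene were not counted.

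Nucleotide supply genes rose in 5 of 5 cases, from 144 ± 2.97 to 395 ± 27.8 CPM (SD, n = 3), a ratio of 2.75. Rrm2, the small subunit of ribonucleotide reductase that is made in S phase, went from 20.9, 22.3 and 24.5 CPM to 84.8, 88.1 and 118 CPM (2.10 ± 0.14, edgeR adjusted p = 2.16e-05). Rrm1, the large subunit, went from 78.0, 75.4 and 78.5 CPM to 186, 190.5 and 191 CPM (1.29 ± 0.07, edgeR adjusted p = 1.19e-05), and its libraries were nearly level within each group. Per length, Rrm2 was at 1.16 ± 0.0887 of Rrm1 in control and 2.03 ± 0.362 in DPCP skin (SD, n = 3). Dut, the dUTPase that keeps uracil out of DNA, changed least, from 12.8, 14.7 and 14.5 CPM to 23.4, 24.3 and 25.3 CPM (0.80 ± 0.10, edgeR adjusted p = 0.000442). Tk1, the cytosolic thymidine kinase, rose by 1.75 ± 0.10 and Tyms, thymidylate synthase, by 1.27 ± 0.09 on the log2 scale.

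Paralogs of these enzymes that serve cells outside S phase were read in the same fit. Rrm2b, the reductase small subunit induced by p53, had 28.0, 27.8 and 28.1 CPM in control and 17.2, 19.1 and 15.8 CPM in DPCP libraries, with no overlap. It fell by 0.69 on the log2 scale (SE 0.10, edgeR adjusted p = 0.000863). The ratio of Rrm2 to Rrm2b per length was 2.66 ± 0.204 in control and 18.7 ± 5.15 in DPCP libraries (SD, n = 3). Tk2, the mitochondrial thymidine kinase, was not called (-0.17, edgeR adjusted p = 0.362), and the Tk1 to Tk2 ratio was 0.426 ± 0.0433 and 1.63 ± 0.37. In all, 8 such within-pathway ratios were computed, for pairs chosen after their values had been seen. With 3 libraries against 3 an exact two-sided permutation test cannot give a p below 0.1, which 7 of the 8 ratios reached (Benjamini-Hochberg adjusted 0.114), all but Cdt1 to Gmnn.

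The genes of replication-coupled chromatin had the largest ratio of sums, 3.13, from 34.7 ± 5.19 to 109 ± 14.7 CPM (SD, n = 3). Chaf1b, the middle subunit of the histone chaperone CAF-1, went from 5.59, 6.70 and 5.40 CPM to 20.2, 21.9 and 26.4 CPM (1.95 ± 0.15, edgeR adjusted p = 3.64e-05). Chaf1a, its large subunit, went from 6.74, 7.30 and 8.71 CPM to 21.6, 20.3 and 24.4 CPM (1.54 ± 0.14, edgeR adjusted p = 7.57e-05). Uhrf1, which guides DNA methylation to new strands, rose by 1.59 ± 0.17 on the log2 scale. E2f1, the one transcription factor among the 44, rose from 10.1, 11.5 and 10.1 CPM to 18.1, 14.9 and 15.5 CPM (0.62 ± 0.13, edgeR adjusted p = 0.00433), and was highest in DPCP replicate 1, where most members were lowest of the DPCP libraries.

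Within 6 chosen complexes, non-member subunits such as Orc3 and Rpa3 included, the subunits were nearer to each other per length in DPCP than in control skin. Subunits outside these 6 could go the other way, as Rrm2 stood at 1.16 of Rrm1 in control and 2.03 in DPCP skin. Chaf1b and Chaf1a had 3.66 and 2.48 TPM in control and 12.3 and 6.28 TPM in DPCP skin. The ratio of the highest to the lowest mean TPM was lower in DPCP for all 6 complexes compared: besides MCM2-7, ORC and GINS, it went from 3.79 to 2.29 for RFC, from 2.202 to 1.497 for RPA and from 3.31 to 2.45 for polymerase alpha-primase. The lowest subunit was the same gene in both groups in all but GINS, where it was Gins2 in control and Gins3 in DPCP skin. Across the 44 genes, a lower control level went with a larger change (Spearman's rho -0.38, Pearson's r -0.44 on log2 TPM, across genes, which are not independent replicates and share the control libraries in both measures). The 11 genes under 5 TPM in control skin had a median log2 fold change of 1.48, and the 33 others one of 1.03. Among the 11 were Fen1, Gins2 and Chaf1a, whose TPM may be too low because reads in shared exon bases were not counted.

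**Figure D5:**
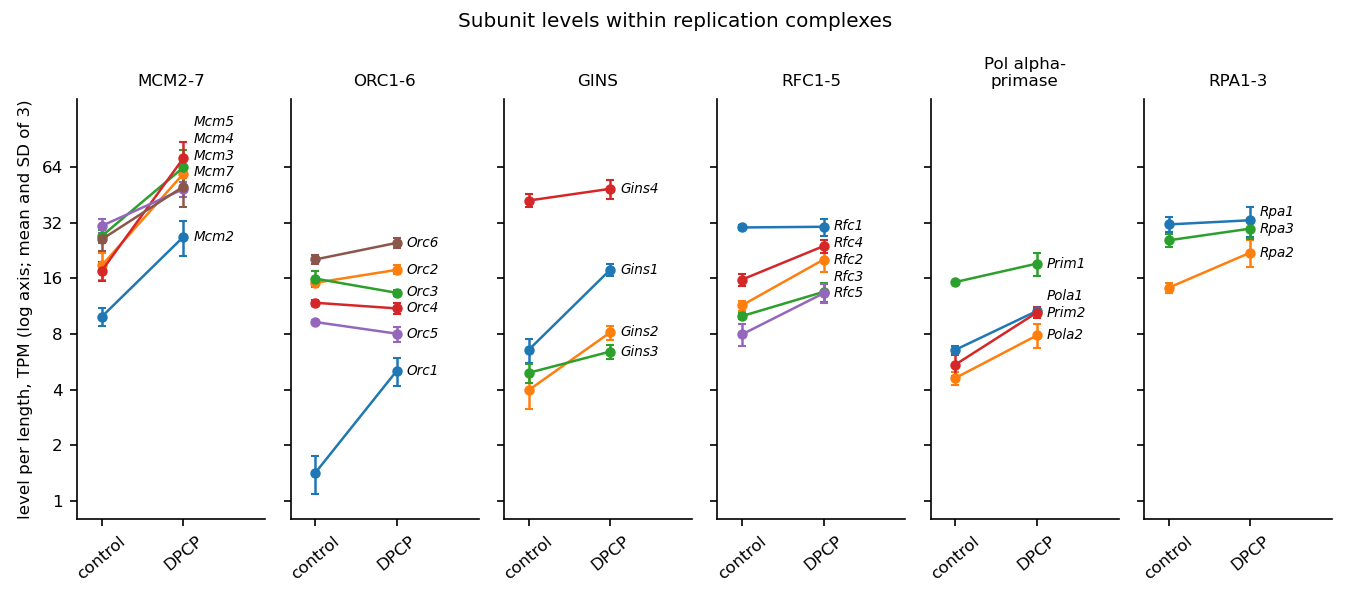
Mean TPM (y axis, log scale) of each subunit of 6 replication complexes in control and DPCP skin (3 libraries each), with bars of 1 SD (n = 3) and a line joining the groups for each gene. The lines draw closer in DPCP skin in all 6 panels, most of all for ORC, where the ratio of highest to lowest went from 14.3 to 4.92.

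Other genes of the pathway were read from 6 lists of 74 genes in all, which hold no member. Of these, 55 rose, 5 fell and 14 were not called, where 22.8% of all tested genes rose and 23.3% fell. Their median log2 fold change was 0.56. Of 12 other origin and firing genes 8 rose, led in p by Dbf4, the activating subunit of the CDC7 kinase (1.78 ± 0.09, edgeR adjusted p = 7.15e-06), and Mcm9 fell. All 20 other fork genes rose, with the smallest p for Top2a, the topoisomerase that untangles daughter strands (1.40 ± 0.08, edgeR adjusted p = 1.28e-05). Of 8 other nucleotide supply genes 6 rose and Rrm2b fell. Of 8 other chromatin genes 7 rose, Hells, a chromatin remodeller, with the smallest p (1.66 ± 0.12, edgeR adjusted p = 3.11e-05), and the gene not called was Asf1a (-0.13).

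Among 12 E2F and pocket protein genes 6 rose and 3 fell. Over all tested genes 23.3% fell, so 3 of 12 is near the share that any list would hold. E2f8, an E2F that represses transcription, rose by 2.16 ± 0.16 on the log2 scale (edgeR adjusted p = 3.11e-05). Rbl2, which encodes the pocket protein p130 of resting cells, fell by 0.55 on the log2 scale (SE 0.09, edgeR adjusted p = 0.00124). The others that fell were Tfdp2, an E2F dimer partner, by 0.74 and Rb1, the retinoblastoma protein, by 0.31 on the log2 scale. Of 14 genes for S-phase kinases, checkpoints and CDT1 turnover 8 rose, with the smallest p for Pclaf, a PCNA-binding factor (1.62 ± 0.09, edgeR adjusted p = 8.88e-06). Ccne1, cyclin E1, singled out after its value was seen, had the largest change of all 74 (2.74 ± 0.19).

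Sequence sharing limits some of these counts. Of the 44 genes, 15 (34.1%) share exon bases with another annotated gene, close to the 32.8% of all tested genes, and reads in shared bases were not counted for either. All 29 members that share none were called higher. The members lie on 15 chromosomes, for instance Mcm10 at chr2:4989714-5012791, Rfc1 at chr5:65261850-65335670, Rpa1 at chr11:75298166-75348324 and Rrm2 at chr12:24708241-24714146 on GRCm38, as the file gives their exons. Besides Fen1, genes with overlapping exons at the same locus hold 64.1% of the 100-base words of Gins2 (Gse1), 46.7% of those of Chaf1a (Ubxn6), 23.6% of those of Orc2 (Nif3l1) and 13.4% of those of Rfc2 (Lat2). For Pcna 10.1% occur in Pcna-ps2, a separate copy that shares no exon with it. The levels of these members are uncertain. The smallest count of any member in a library was 23, for Fen1, and 4 members had under 100 counts in some library.

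Markers of the cell types that skin holds were read beside the replication genes, and the lists moved in differing directions. Their counts stand beside 22.8% of all tested genes called higher and 23.3% called lower. The 7 basal keratinocyte markers summed to 14462 ± 1273 CPM in control and 26868 ± 2026 CPM in DPCP skin (SD, n = 3), but 3 rose and 2 fell. The rise of the sum rests on Krt14, a basal layer keratin, which went from 4776 ± 396 to 17426 ± 1233 CPM (SD, n = 3). Krt14 rose by 1.87 on the log2 scale, whereas Krt15, a keratin of resting basal and bulge cells, fell by 1.77. Col17a1, a hemidesmosome collagen, fell by 0.47. Of the 5 leukocyte markers 4 rose, with library sums of 342 to 498 CPM in control and 727 to 1169 CPM in DPCP skin. All 5 neutrophil markers tested of 6 rose, with sums from 15.96 to 23.4 CPM and from 452 to 1204 CPM. Of 6 macrophage and monocyte markers 3 rose (sums of 1352 to 2266 CPM and 2149 to 3644 CPM). Myeloid precursor markers were near 0, Ms4a3 had 0 counts in every library, and Prtn3 alone of 5 passed the filter and rose (sums of 1.46 to 2.18 CPM and 3.45 to 5.53 CPM).

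Of 7 hair matrix and shaft markers 3 were tested, with sums of 30.9 to 37.0 CPM in control and 19.5 to 30.3 CPM in DPCP skin. The hair keratins Krt35 and Krt31 and the root sheath keratin Krt25 had 0 to 4 counts a library. Krt71, also untested, had 4 to 10 counts a library in control and 9 to 12 in DPCP skin. Krt85 was listed as a further marker but matched no gene by symbol. Dlx3, a homeobox gene also used in the upper epidermis, made up most of the sum and fell by 0.55 on the log2 scale (SE 0.14, edgeR adjusted p = 0.0110), from 21.7 ± 3.10 to 14.8 ± 1.67 CPM (SD, n = 3). The homeobox genes Hoxc13 (6.46 ± 0.569 and 8.01 ± 3.05 CPM) and Msx2 (4.33 ± 0.974 and 2.48 ± 1.06 CPM) were not called. Of 7 T cell markers 4 fell and 1 rose, with sums of 47.6 to 61.8 CPM and 19.6 to 29.8 CPM. Endothelial markers rose in 3 of 5 cases and fell in 1 (sums of 204 to 243 CPM and 324 to 387 CPM), and fibroblast markers rose in 2 of 5 cases (4077 to 5547 CPM and 5671 to 6906 CPM). All 5 skeletal muscle markers fell, from sums of 8508 to 11079 CPM to 2235 to 4466 CPM. Adipocyte markers had 1 gene higher and 1 lower of 4, with sums of 718 to 893 CPM and 842 to 995 CPM. Of 6 erythroid markers 5 were tested and 0 were called by edgeR. The part that any of these cell types had in the replication genes' change was not tested.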

How the data were processed

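Gene-level counts of 6 libraries of whole dorsal mouse skin (3 control, 3 DPCP) were deposited by the authors as raw whole-number counts, with a merged exon length per gene (unit other: bases), made with featureCounts 1.6.2 on an Ensembl GRCm38 annotation, per the file headers. The header shows no option for strand or read pairs, so the counting did not use strand and mates counted singly. Trimmomatic 0.36, HISAT2 2.2.1, StringTie 2.2.1 and DESeq2 1.34.0 are named in the submitters' processing notes. Total counts were 28346992 to 38846787 a library, for which 3 counts equal 0.0772 to 0.106 CPM.

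Gene symbols were matched by Ensembl ID for 55141 of 55487 genes. The comparison was fitted over all genes with edgeR 4.0.16 (quasi-likelihood test, TMM factors, filterByExpr, Benjamini-Hochberg threshold 0.05) in R 4.3.3. A run on simulated counts changed far fewer genes than were called here, so it does not check error control in these data. CPM used TMM-scaled totals, and TPM used the counts and deposited lengths. SE was computed from the F statistic. The 44 members, the pathway and marker lists and the rule for named genes were chosen with earlier results of these data known. That rule took, in each role, the largest and smallest change, every member not called, and members whose promoter is shown, and, of each other list, the called gene with the smallest p in each direction and paralogs of members. A gene that this rule names is not reported here. Promoters came from a RefSeq table on GRCm38.p6. Alternatives were other scalings, other filters, DESeq2 1.42.0, a replicate block, genes sharing no exon base, and leaving out each library.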

Additional observations from a re-analysis of the deposited data

How the results depend on the processing

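The members called higher numbered 42 or 43 under RLE, upper-quartile and library-total scaling, without a count filter, with a filter of at least 1 CPM, with DESeq2 and with each library left out (42 to 43), and 0 were lower in each. Testing only genes that share no exon base left fewer genes: 28 of 29 members were then called higher, as were 2708 of 12271 genes and 32 of 40 other pathway genes, and 1 of those 40 was lower. Leaving out a library gave 50 to 53 other pathway genes higher and 3 to 5 lower, the 3 without control replicate 1, control replicate 3 or DPCP replicate 3, and 3492 to 4035 genes higher over all. On the TPM scale, added after the data were seen, the ratio of the members' summed level was 1.85. That is lower than the ratio in CPM by more than the spread between libraries, so the size of the summed rise depends on the scale. Of the 44 members 42 kept their call under every alternative they entered, 14 for the 29 members that share no exon base and 13 for the other 15. Rfc1 lost it in 11, with edgeR adjusted p from 0.0503 to 0.147, and Rpa1 gained it in 2. No called gene changed direction. Deviations from the group mean correlated at 0.0455, 0.0266 and 0.112 for same-numbered libraries, and at -0.1435 to 0.099 for differently numbered ones. With 3 libraries a group, these values cannot show whether replicate numbers pair the libraries. With the replicate block 43 members, 4260 genes and 54 other pathway genes were higher, and Rpa1 was called (edgeR adjusted p = 0.0357). Depth limits members with few counts, such as Fen1.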
